A study of Homo sapiens with 4 samples.

Results

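The ESS2 knockdown in PC3 cells was described across the transcriptome from 2 of the 4 arrays of the series, 1 of PC3-shC cells and 1 of PC3-shESS2 cells. PC3 is an established androgen-independent prostate cancer cell line derived from a bone metastasis. PC3-shC cells carried an shRNA against luciferase as control and PC3-shESS2 cells an shRNA against ESS2. The labels call the delivery lentiviral, whereas the methods describe a transfected plasmid and puromycin selection of a stable culture, and neither names a clone. Total RNA, 0.1 µg for each array, was measured with 1 colour on Agilent human expression arrays. The other 2 arrays hold DU145, another established prostate cancer line, with a control or an ESS2 shRNA, and their values are given only beside PC3 values. Of 25005 genes with a symbol on the arrays, 15713 were well above background on both PC3 arrays, and these genes were compared. A value is the processed signal in arbitrary units, pairs of values give PC3-shC first, and a ratio is log2 of PC3-shESS2 over PC3-shC after dividing each array by its own 75th percentile. Signals of different probes do not rank transcripts, because probes differ in how strongly they bind.

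ESS2 is a nuclear protein found in the spliceosomal C complex, which forms while an intron is being removed, and it has also been described as a transcriptional coregulator. A stable shRNA lowers the level of its target RNA by RNA interference, and an array then reads the steady-state level of all other RNAs in the selected culture. PC3 cells produce many secreted and inflammatory factors.

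Each condition had 1 array, so ratios were read without replicates and no p-values were computed. The only error that could be measured was that between spots. For 286 probes spotted 10 times, a ratio of 1 spot to another across both arrays varied with a median SD of 0.08 on the log2 scale. That SD covers neither hybridization nor cells. The signal of the ESS2 probe was 133 on the PC3-shC array and 53.6 on the PC3-shESS2 array, a log2 ratio of -1.45 that matches the label. With another background correction (normexp) this ratio was -0.90, under 2-fold. In DU145 the same probe read 85.7 with the control shRNA and 17.3 with the ESS2 shRNA. GAPDH read 65422 and 81978 in PC3 (log2 ratio 0.18) and ACTB 141000 and 173000 (0.15). The share of spots above background was 50.8% for PC3-shC and 52.2% for PC3-shESS2. The labelled cell type was checked against its markers: KRT18 (72400 and 86700), CD44 (18900 and 14000) and VIM (620 and 4250) were well above background, and KLK3 did not pass background in either culture. KLK2, also expected to be low, was above it (13.7 and 9.94). Among markers of other cells, CD3E, COL3A1 and DCN did not pass it either, whereas PTPRC read 59.7 and 60, CDH5 47.5 and 53.3, and VWF 24.4 and 30.4. The markers CD14, TYROBP, COL1A1, LUM, PDGFRB and PECAM1 were above background as well. In RNA of a whole culture, fewer cells of a type and less RNA per cell cannot be told apart. Both PC3 arrays lay on the same slide.

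Past 2-fold, 539 genes were lower in PC3-shESS2 cells (3.43% of those compared) and 517 were higher (3.29%). Past 4-fold, 128 genes were lower (0.815%) and 94 higher (0.598%). The median log2 ratio of all genes was -0.06, and 76.7% of genes lay within 0.5 of zero on the log2 scale. When the arrays were scaled to their medians instead, the centre moved to -0.16 and 63.0% of the genes past 2-fold were lower (668 lower and 392 higher), against 51.0% here. The deposited scaled values moved it the other way, to 449 lower and 632 higher (41.5% lower). Of the genes past 2-fold, 983 lay outside the gene families shown in the published microarray panels and 73 inside them. Those families held only 285 of the genes compared, so a larger share of them was past 2-fold. The panels were drawn from these same arrays. The description below is mainly of genes outside the families.

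**Figure D1:**
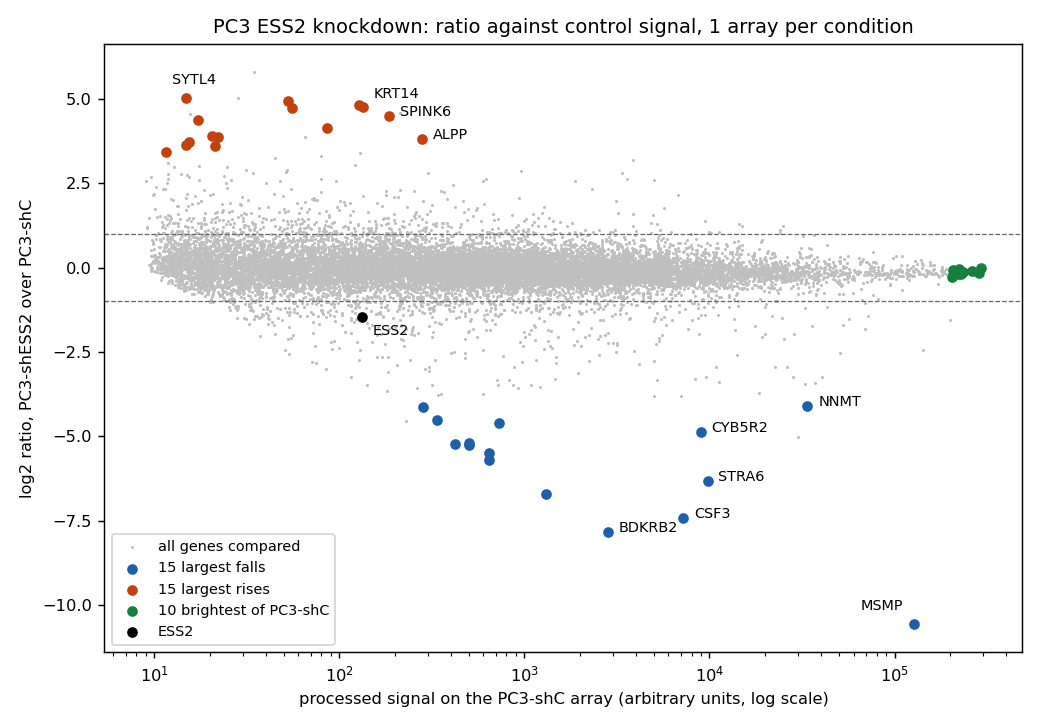
Log2 ratio (y axis) against the signal on the PC3-shC array (x axis, arbitrary units, log scale) for the 15713 genes compared, with dashed lines at 2-fold. The largest falls start from signals between 284 and 128000, whereas the largest rises start from signals between 11.6 and 279.

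Choosing genes by their ratio tends to give lower genes that are bright on the control array and higher genes that are dim there, so the signals of both groups are given as a description. Genes lower past 4-fold had a median signal of 934 on the PC3-shC array and 112 on the PC3-shESS2 array. For genes higher past 4-fold these medians were 46.3 and 350. A signal of at least 10000 in PC3-shC cells was held by 18 of the 128 lower genes, 0 of the 94 higher genes and 1189 of all 15713. On the PC3-shESS2 array these counts were 1, 7 and 1206. A dim gene also cannot fall far and stay above background. In signal terms, the 539 genes lower past 2-fold held 3.48% of the summed signal of all genes compared on the control array and 1.02% on the knockdown array. The 517 higher genes held 0.561% and 1.69%.

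Divided into 10 classes of equal number by mean signal, the genes past 2-fold were spread unevenly. In classes 2 and 3, counted from the dimmest, 11.3% of the genes were past 2-fold, and in the brightest class 3.56%. The SD of the log2 ratios was 0.80 in class 3 and 0.47 in the brightest. The class median went from 0.01 in the dimmest class to -0.13 in the brightest, so the ratios carried a small slope with signal.

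Genes outside the panels were ranked where all their probes above background on both arrays went one way. The largest falls so ranked were in secreted factors, receptors and enzymes. MSMP, a small secreted protein of the microseminoprotein family, read 128000 in control and 92.3 in knockdown cells, a difference of 1529-fold. In DU145 cells the same probe read 193 and 99.9. CSF3, which encodes granulocyte colony-stimulating factor, went from 7200 to 45.9. BDKRB2, a receptor for bradykinin, went from 2820 to 13.5, and the related BDKRB1 read 941 in PC3-shC cells and was not well above background in PC3-shESS2 cells, which makes it at least 115-fold lower. Both bradykinin receptors were thus bright on the control array and near or under background on the other.

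Among enzymes, NNMT, which methylates nicotinamide, read 33800 and 2190, CYB5R2, a cytochrome b5 reductase, 8970 and 339, and BBOX1, the last enzyme of carnitine synthesis, 647 and 13.7. VNN1, a pantetheinase, read 726 and 32.6. These enzymes belong to unrelated pathways. With normexp BBOX1 stood at -3.48 and VNN1 at -3.08 on the log2 scale, against -5.70 and -4.62 here. TRIM31, a ubiquitin ligase, went from 643 to 15.8, MUC5B, a gel-forming mucin, from 502 to 14.5, and C1S, a protease of the complement cascade, from 502 to 15. SCNN1A, a subunit of the epithelial sodium channel, read 284 and 18. PECAM1, an adhesion molecule of endothelium and leukocytes, read 338 and 16.4, while the endothelial genes CDH5 and VWF had log2 ratios of 0.03 and 0.18. The log2 ratios of the 15 largest falls lay between -4.09 and -10.58, and with normexp between -2.28 (SCNN1A) and -9.84 (MSMP), a change of over 1.5 times in fold for 13 of them.

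**Figure D2:**
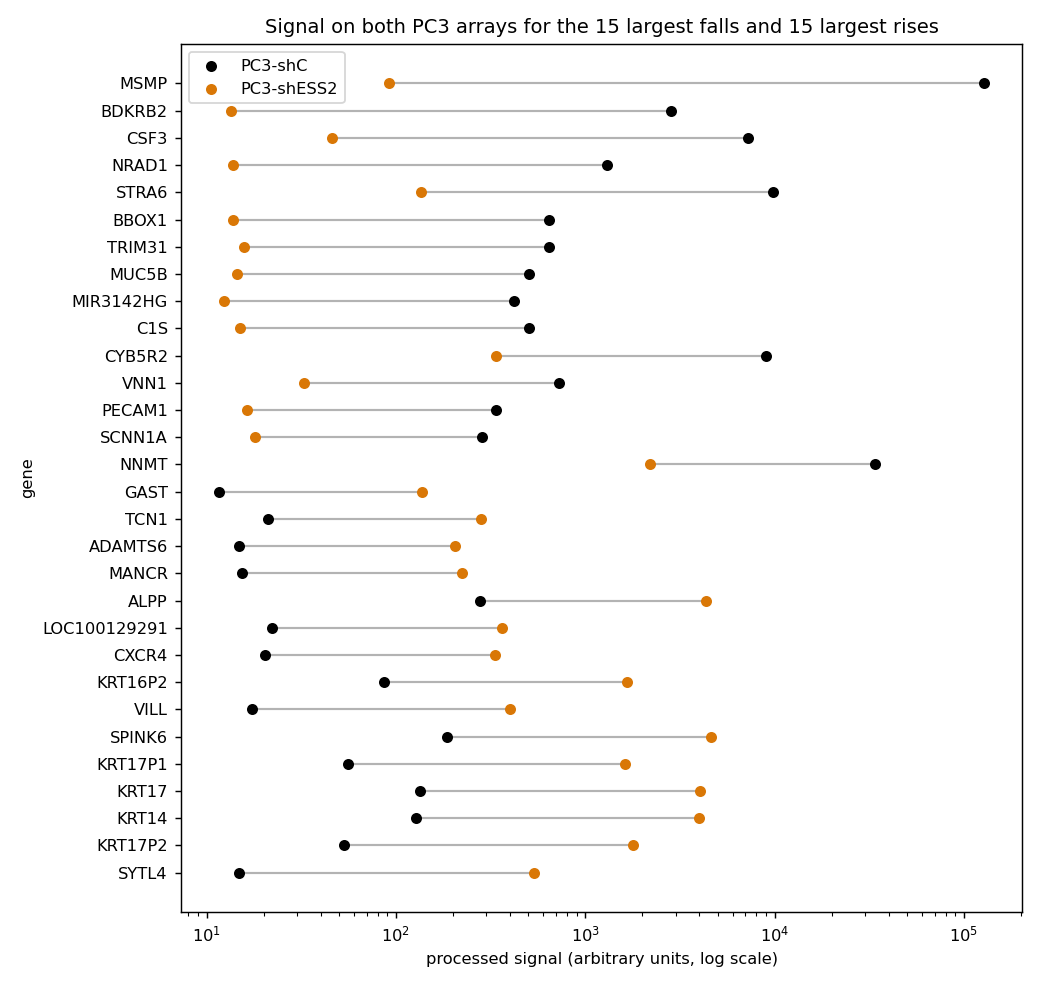
Signal (x axis, arbitrary units, log scale) of the 15 genes with the largest falls and the 15 with the largest rises, outside the panel families and with all probes in one direction, with PC3-shC in black and PC3-shESS2 in orange, 1 array each. MSMP spans 128000 to 92.3, and most of the genes that rose were under 100 in PC3-shC cells.

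Among genes whose probes all went one way, the largest rises were led by a membrane-traffic protein and by basal keratins. SYTL4, which binds RAB27 on secretory granules, read 14.9 and 533, a log2 ratio of 5.02. KRT14, a keratin of basal epithelial cells, read 128 and 3980, and KRT17, a keratin of basal and injured epithelium, 134 and 4030. KRT16 read 79.8 and 883. Probes named for pseudogenes of these keratins moved with them: KRT17P2 read 53 and 1790, KRT17P1 55.5 and 1630, and KRT16P2 86.3 and 1670. These sequences are nearly identical, so the signal of any of them can come from another and the number of keratin genes that were higher is uncertain. A further member, KRT42P, gave 5.05 on the log2 scale with its brighter probe, above the ratio of SYTL4, but -0.40 with its other.

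SPINK6, an inhibitor of kallikrein proteases, read 185 and 4630. ALPP, placental alkaline phosphatase, read 279 and 4350, and it has near-identical relatives whose RNA its probe may also bind. CXCR4, the receptor of CXCL12, read 20.5 and 333, a log2 ratio of 3.92 that was 2.23 with normexp. ADAMTS6, a secreted metalloprotease, read 14.8 and 204, TCN1, which binds cobalamin, 21.2 and 283, VILL, a villin-like protein, 17.3 and 401, and GAST, the hormone gastrin, 11.6 and 137. The long noncoding RNA MANCR read 15.4 and 223, and LOC100129291, a transcribed pseudogene, 22.2 and 362. The log2 ratios of the 15 largest rises lay between 3.42 and 5.02, and with normexp between 1.45 (GAST) and 4.30, a change of over 1.5 times in fold for 11 of them. In DU145 cells 8 of the 15 genes with the largest rises were not well above background on both arrays. The same held for 10 of the 15 largest falls and for 1116 of all 15713 genes compared. CXCR4 read 415 and 623 in DU145 cells.

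Ranked by the difference in scaled signal, which weights bright genes, other genes with probes of one direction came first. MSMP (-486 times the array's 75th percentile) and MT2A, a metal-binding metallothionein (-444, from 143000 to 28900), were far ahead of the next on the falling side. RPS25, a ribosomal protein, followed with -182 although its log2 ratio was only -0.47. The calcium-binding protein S100A9 (50400 and 9730), the phospholipase PLAAT3 (71622 and 29456), the transcriptional inhibitor ID1 (56900 and 22100), the TNF-induced gene TNFAIP2 (52400 and 17800) and LCN2, an iron-siderophore-binding defence protein (40400 and 4680), were all past 2-fold. H3-3A (-0.65) and CCDC9 (-0.92), also among the 10, were under 2-fold on the log2 scale. Thus 7 of these 10 losses of signal were also past 2-fold. RPS24, left out because its dim second probe gave 0.46, would have ranked ahead of TNFAIP2 and LCN2 with a difference of -139 and a log2 ratio of -0.21.

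On the rising side CLDN4, a tight-junction claudin, came first with 36600 and 79300, and LAMB3, a laminin chain of the basement membrane, second with 25100 and 65800. CALB1, the calcium buffer calbindin, read 3840 and 38900, the largest ratio of the group (log2 ratio 3.20). SFN, the epithelial 14-3-3 protein, read 24100 and 57200, and SAR1A, a GTPase of vesicle budding, 23900 and 53600, although a second SAR1A probe read 5320 and 6890 (0.23). ANXA2 (0.69), the protease PLAU (0.46), the chaperone CALR (0.35), HMGN2 (0.30) and JPT1 (0.23) were bright genes whose log2 ratios stayed under 1. The 10 brightest genes of PC3-shC cells hardly differed. They were taken outside the panels, with probes of one direction and thus again without RPS24 (267000 and 254000). Their log2 ratios ran from -0.27 for KRT81, a hair keratin, to 0.00 for SNAR-A3, a small noncoding RNA. Between them lay RPS2 (-0.16), RPS18 (-0.18), RPS28 (-0.13), RPS21 (-0.18), RNA28SN1 (-0.10), SLC66A1 (-0.16), ZNF865 (-0.06) and SNAR-B2 (-0.04). The place of ZNF865 rests on its brightest probe (207000 and 219000), as its other probes read 324 and 357, and 37.6 and 36.7.

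Function lists were read against the shares over all genes, 3.43% lower and 3.29% higher. Of 87 lists, 44 held members past 2-fold in both directions, 19 only lower ones, 13 only higher ones and 11 none. The counts depend on the background correction: with normexp, 305 genes were lower and 244 higher in all, and of 42 lists examined for this with at least 4 members past 2-fold, 24 fell by more than 1.5 times in count. The metallothioneins, small proteins that bind zinc and copper, stood lowest. Of 8 compared, 5 were lower past 2-fold and 0 higher, with a median log2 ratio of -2.20 against -0.06 over all genes. The distance between these medians was -2.14, and without a filter on dim genes it was -0.63, with the same count of 5 lower. MT1L read 26100 and 3740, MT1B 22600 and 3270, and MT1A 28500 and 8110. MT1X (-0.82), MT1F (-0.62) and MT3 (-0.16) were under 2-fold. MT1E gave -2.95 with its bright probe and 0.77 with a second probe that read 11.9 and 22.3. The MT1 genes are near-identical, so their probes are not independent of each other.

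The retinoid pathway, which takes up vitamin A and turns it into retinoic acid, had 6 of 19 genes lower past 2-fold and 1 higher, with a median of -0.47. With normexp 4 were lower and 0 higher, and the list's median lay at -0.22 from that of all genes, against -0.41 here and -0.04 without a filter on dim genes. STRA6, the cell-surface receptor for retinol carried by RBP4, read 9770 and 135 with its brighter probe, and its 2 probes were both lower with a span of 1.34 between their log2 ratios. RBP4 itself read 242 and 40.2. DHRS3, which reduces retinal, read 17600 and 5910, and ALDH1A1, which oxidizes retinal to retinoic acid, 158 and 66.7. NRAD1, a long noncoding RNA named for its place in the ALDH1A pathway, went from 1310 to 13.7. LRAT, which esterifies retinol for storage, was higher (30.8 and 82.3). ALDH1A3, another retinal-oxidizing enzyme, lay at -0.47 (29600 and 23500). NRAD1 and the uptake receptor thus had the largest ratios of the pathway.

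Epithelial defence and acute-phase genes had 8 of 26 lower past 2-fold and 2 higher (median -0.42). With normexp 7 were lower and 2 higher, and the median's distance from all genes was -0.20, against -0.36 here. C3, the central component of complement, read 32900 and 3350, and LCN2 lay at -3.25. VNN2, a second pantetheinase, read 341 and 27.7. Beside these, the serum amyloid A genes were seen on the control array only. SAA1 read 9610 and 3.71, which makes it at least 1175-fold lower, SAA2 at least 394-fold lower and SAA4 at least 59.2-fold lower. SAA1 and SAA2 are near-identical and may share signal. Among S100 proteins 4 of 16 were lower and 0 higher: S100A8 read 28200 and 3260, S100A12 328 and 54.2, S100A9 50400 and 9730 and S100A7 38.5 and 18.3. The other 12 of the list lay between -0.65 (S100A5) and 0.59 (S100A10). The list was picked by symbol and so also holds S100PBP, which encodes a binding partner of S100P.

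Pattern-recognition genes had 3 of 33 lower past 2-fold and 0 higher, or 3 and 2 in the deposited scaled values. These were CASP1, the caspase that cleaves pro-interleukin 1 beta (292 and 40.1), the kinase IKBKE (319 and 93.9) and the RNA sensor TLR3 (240 and 99.3). NOD2, a sensor of bacterial cell wall, was at least 13.3-fold lower. In antigen presentation 6 of 30 genes were lower and 2 higher, and 8 of the 30 belong to the published panels. With normexp 4 were lower and 1 higher, and median scaling gave 10 and 2. PSMB8 (-1.78) and PSMB9 (-1.17), catalytic subunits of the immunoproteasome, and the activator subunit PSME2 (-1.04) were the 3 lower genes among 45 of the proteasome, where the median was -0.08, and median scaling gave 5 lower. CD274, the checkpoint ligand PD-L1, was higher (111 and 280), as was ULBP2, a ligand of the NKG2D receptor (244 and 712).

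**Figure D3:**
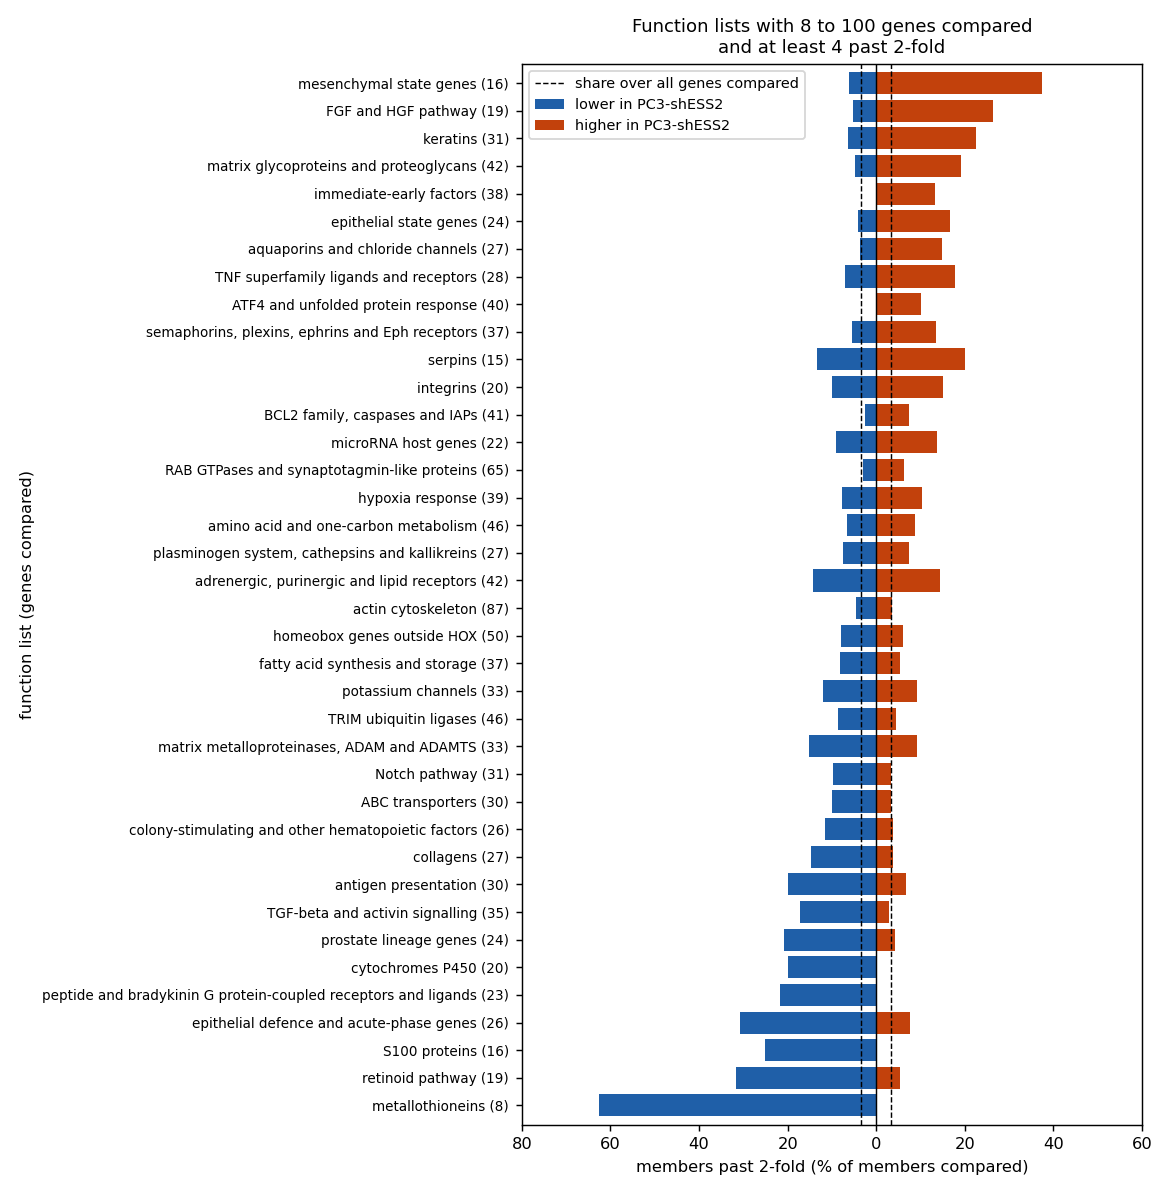
Members past 2-fold (x axis, % of the members compared, lower to the left in blue and higher to the right in orange) in the function lists reported that have 8 to 100 genes compared and at least 4 past 2-fold, with dashed lines at the shares over all genes, 3.43% and 3.29%. Lists are ordered by the share higher minus the share lower, with metallothioneins, the retinoid pathway and S100 proteins at the lower end and mesenchymal state genes and the FGF and HGF pathway at the upper.

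Ligand and receptor genes went both ways. In the TNF superfamily LTB, a lymphotoxin subunit, read 714 and 79.1 and the death ligand TNFSF10 215 and 72.3, whereas 5 of 28 genes were higher, among them TNFSF9 (100 and 365) and the decoy receptor TNFRSF11B (270 and 859), and 2 with normexp or 3 with median scaling. Growth factors of the FGF and HGF list had 5 of 19 higher and 1 lower, or 3 and 0 with normexp. FGFBP1, which releases FGFs from matrix, read 355 and 1880, and FGF2 88.4 and 279. FGF1 gave 2.19 with its brighter probe and -0.50 with another. The EGF receptor list had 2 of 13 lower and 0 higher (1 and 0 with normexp), LRIG1, which limits EGF receptor signalling (1404 and 296), and the ligand HBEGF (1060 and 575). PDGFB read 475 and 122 while PDGFA read 258 and 574.

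In TGF-beta and activin signalling 6 of 35 genes were lower and 1 higher, or 3 and 1 with normexp. The BMP-responsive inhibitors ID1 (-1.51), ID3 (-1.30) and SMAD6 (-1.32) were lower, and FST, which binds activin, was higher (5230 and 14300). MAPK feedback genes included DUSP6 (8960 and 3770) and SPRY1 (2980 and 1230) among the lower and DUSP10 (50.6 and 177) as the only higher one of 26, and just under 2-fold with normexp. LFNG, which modifies Notch, read 1930 and 477 with its brighter probe and 157 and 145 (-0.26) with another. The list of receptors for adrenaline, purines and lipids also holds genes of eicosanoid synthesis. Of its 42 genes compared, 6 were lower and 6 higher, or 4 and 3 with normexp. The eicosanoid genes ALOX5AP (142 and 14.1), PLA2G4A (944 and 227) and PTGES (1140 and 283) were lower, and S1PR1 (13.9 and 105) and ADRA1B (12.8 and 113) were higher.

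Epithelial structure lists went both ways. Keratins had 7 of 31 higher and 2 lower, KRT23 (401 and 76.6) and KRT75 (224 and 49.6), around a median of -0.06, with 17 of the 31 below zero, and the luminal keratins KRT8 and KRT18 lay at 0.56 and 0.12. Among desmosome genes 8 of 9 lay above the all-gene median, and PKP1, a plaque protein of stratified epithelium, read 409 and 2460. Tight junction genes had 2 of 27 lower past 2-fold, CLDN11 (260 and 129) and TJP3 (85.1 and 46.9), and 0 higher, with CLDN4 just under it at 0.97 and a list median of 0.12. With normexp neither passed 2-fold (-0.88 and -0.54). LAMB3 and LAMA3, laminin chains of the basement membrane, gave 1.25 and 1.56. The LAMA3 value rests on its brighter probe (4940 and 16100), as a second probe read 642 and 183 (-1.95). ITGA5, a fibronectin receptor chain, read 213 and 1170, while ITGB3 read 417 and 80.8.

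Mesenchymal state genes had 6 of 16 higher and 1 lower, with a median of 0.48. With normexp 3 were higher and 0 lower, and ZEB1 stood at 0.88, and among the brighter genes alone 2 were higher. The median's distance from all genes was 0.54, and 0.19 without a filter on dim genes. VIM, the intermediate filament of mesenchymal cells, read 620 and 4250, the receptor tyrosine kinase AXL 1240 and 4190, the transcription factor ZEB1 30.4 and 104 and TWIST1 54.8 and 159. Against these, ACTA2 read 79.5 and 37, and SPARC, a matrix glycoprotein, was at least 14.8-fold lower in PC3-shESS2 cells. The epithelial state list also had more higher members (4 of 24) than lower ones (1 of 24), so genes of both states were higher. Matrix glycoproteins had 8 of 42 higher and 2 lower, or 4 and 2 with normexp. CEMIP, which degrades hyaluronan, read 23.8 and 173, and HAS2, which makes it, 1010 and 271. IGFBP3 read 2512 and 644. MMP7, a secreted metalloprotease of epithelia, read 924 and 86.6, while MMP13 read 23.1 and 93.9.

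Prostate lineage genes had 5 of 24 lower and 1 higher (median -0.35), or 3 and 0 with normexp, which put AZGP1 at -0.92 and TMPRSS2 at -0.75. AZGP1 read 53.3 and 9.91, the membrane reductases STEAP1 5470 and 2090, STEAP2 1340 and 411 and STEAP4 409 and 186, and TMPRSS2 104 and 43. The single higher gene, ACP3, which encodes prostatic acid phosphatase, read 9.15 and 23.3, close to background. Neuroendocrine genes were mostly not measured, with 8 of 29 compared, of which ENO2 (358 and 907) and PEG10 (1110 and 2450) were higher. Of 9 leukocyte markers compared, 2 were lower and 0 higher (1 and 0 with normexp), CD14 (221 and 54.7) and TYROBP (53.5 and 26), and their part in the results was not tested.

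**Figure D4:**
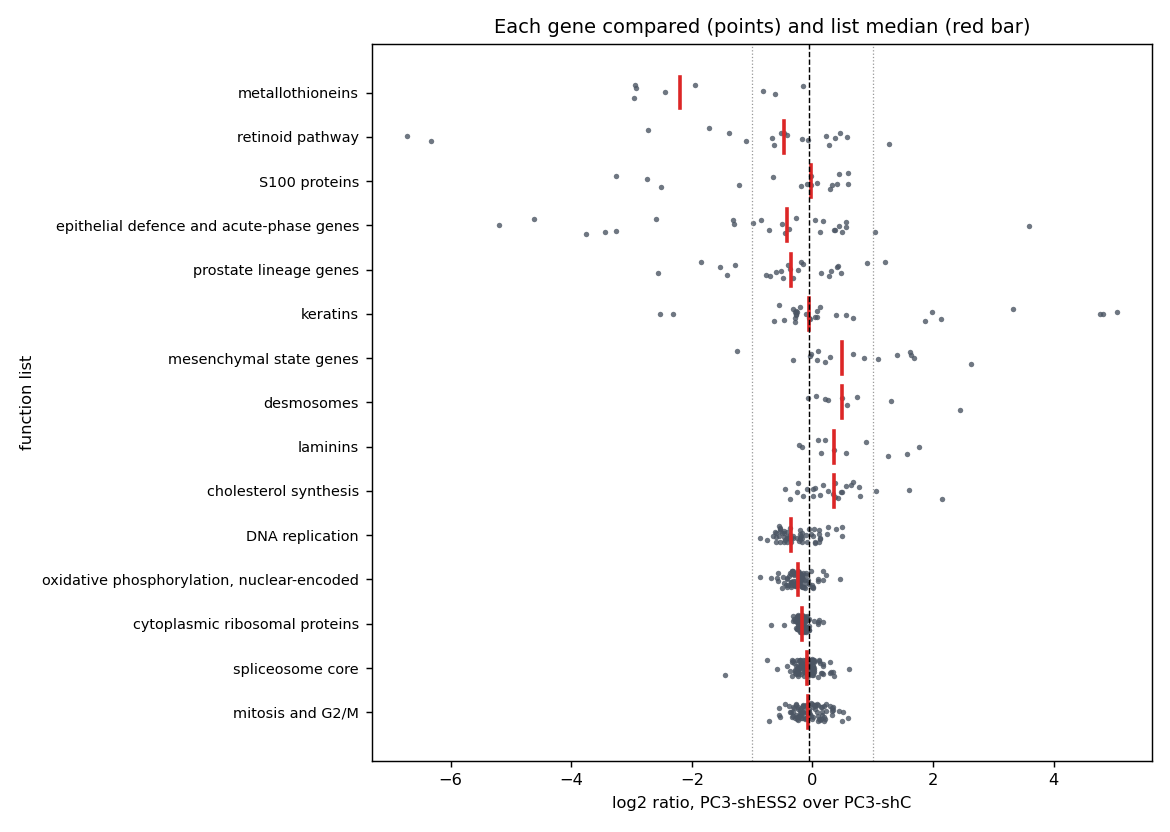
Log2 ratio (x axis) of every gene compared in 15 function lists (points, spread vertically so that they can be seen), with the list median as a red bar, the all-gene median of -0.06 as a dashed line and 2-fold as dotted lines. Metallothioneins have a median of -2.20, and DNA replication genes lie between -0.88 and 0.50 with a median of -0.35.

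Metabolic lists showed small shifts or a few named genes. Cholesterol synthesis and uptake had 3 of 26 higher and 0 lower with a median of 0.36. STARD4, a sterol carrier (135 and 657), and INSIG1, which holds back sterol synthesis (256 and 857), were among them. Cytochromes P450 had 4 of 20 lower and 0 higher, or 2 and 0 with normexp. CYP4X1 read 499 and 150, and CYP2B6 read 307 and 43.6 with its brighter probe but 73.1 and 71.2 (-0.18) with another. Fatty acid genes split, FABP6 (315 and 31.3) lower and the elongase ELOVL2 (40.2 and 254) higher. BCAT1, which starts the breakdown of branched-chain amino acids, read 478 and 92, and CBS, the entry to transsulfuration, 2120 and 559, whereas CTH, the next enzyme of that route, read 584 and 1690.

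Stress and survival lists went both ways. Besides the metallothioneins, NRF2 targets and glutathione genes had 2 of 52 lower and 1 higher (1 and 1 with normexp) with 35 below zero, and heat shock proteins and chaperones had 1 of 48 higher and 0 lower with 37 below zero (median -0.21). The ATF4 and unfolded protein response list had 4 of 40 higher and 0 lower (median 0.28), led by ATF3 (1880 and 12400). The BCL2 family, caspases and inhibitors of apoptosis had 3 of 41 higher and 1 lower, led by the pro-apoptotic PMAIP1 (959 and 7730). Immediate-early factors had 5 of 38 higher and 0 lower, with KLF6 (1280 and 4940, and 12.3 and 18.5 with a dim second probe) and ATF3 in front. In the hypoxia list 4 of 39 were higher and 3 lower around a median of 0.37, BNIP3 reading 14400 and 39200 and BHLHE41 13600 and 5180. CASP10 gave 1.62 with its brighter probe (3220 and 10900) and -1.48 with a second (664 and 263).

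Housekeeping machinery held almost no gene past 2-fold. None of 85 cytoplasmic ribosomal protein genes, 77 mitochondrial ribosomal protein genes, 37 aminoacyl-tRNA synthetases, 79 nuclear-encoded genes of oxidative phosphorylation, 32 of the citrate cycle, 91 of mitosis or 61 of DNA replication passed 2-fold. Their medians were still not all at the centre. DNA replication stood at -0.35, with 46 of 61 genes below the all-gene median, among them MCM10 (-0.88), MCM5 (-0.76), MCM7 (-0.66) and PCNA (-0.60), and oxidative phosphorylation at -0.23 with 67 of 79 below. Mitosis genes stood at -0.08. For comparison, the brightest signal class had a median of -0.13, and these shifts were not tested.

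The spliceosome, in which ESS2 itself acts, was nearly level. Of 102 core genes, ESS2 was the single one past 2-fold, and the median was -0.09. Of 78 SR, hnRNP and other splicing regulators, RBM20 alone was past 2-fold (346 and 122). In the transcription machinery MED24, a Mediator subunit, was the only one of 76 (1420 and 637). Chromatin remodelers had 2 of 55 higher and 0 lower, CHD5 and DPF3, both dim and under 2-fold with normexp. CHD5 read 12 and 33.4 with its used probe and 15.5 and 15.2 (-0.17) with a second. DPF3 read 61 and 144 with its used probe and 50 and 66.3 (0.27) with a second. Histone and DNA modifying enzymes had 3 of 86 higher and 0 lower, PRDM8 (296 and 989, and 17.2 and 26.3 with a second probe) and KDM7A (67.4 and 201) among them. Zinc finger genes of the ZNF series had 1 of 400 lower and 7 higher (0 and 1 with normexp, 3 and 4 with median scaling), which is below the shares over all genes on both sides.

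Noncoding RNAs were less often above background than protein-coding genes. Of 5476 long noncoding genes on the arrays 1786 were compared (32.6%), against 13330 of 18482 protein-coding genes (72.1%). Their median signal was 59 in PC3-shC cells, against 668 for protein-coding genes. Past 2-fold lower were 2.91% of the long noncoding and 3.55% of the protein-coding genes, and past 2-fold higher 2.69% and 3.41%. SLC12A5-AS1 read 1080 and 107, LINC02574 71.3 and 11.3, and LINC01111 11.7 and 74.4. The arrays bind 1 strand, but the match of a probe to its antisense gene was taken from the annotation only.

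Of 22 microRNA host genes compared, 2 were lower past 2-fold and 3 higher, or 2 and 1 with normexp or with the mean of the probes. MIR3142HG, the host RNA of miR-3142 and miR-146a, read 421 and 12.4 in PC3 and 80.5 and 2.99 in DU145, where the second value was not well above background. MIR205HG, host of miR-205, read 14300 and 7240. MIR193BHG, host of miR-193b and miR-365a, was higher (49.9 and 147), as were MIR100HG, host of miR-100, let-7a and miR-125b (791 and 1910), and MIR503HG (426 and 954). The MIR100HG value is that of its brightest probe. Another read 67.1 and 74.1 (0.00), and the mean of its probes was 0.91, under 2-fold. The arrays measured the host RNAs and not the mature microRNAs. The mature sequences that these hosts carry follow from RefSeq (GRCh38.p14), 5′ to 3′, with the seed, bases 2 to 8, in capitals, because the seed is what a microRNA pairs with its targets. None of the seeds shown is shared between the lower and the higher hosts.
hsa-miR-146a-5p: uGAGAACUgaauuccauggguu
hsa-miR-3142: aAGGCCUUucugaaccuucaga
hsa-miR-205-5p: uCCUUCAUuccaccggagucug
hsa-miR-193b-3p: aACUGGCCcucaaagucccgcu
hsa-miR-365a-3p: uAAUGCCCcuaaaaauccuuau
hsa-miR-100-5p: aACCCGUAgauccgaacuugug
hsa-let-7a-5p: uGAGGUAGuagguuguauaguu
hsa-miR-125b-5p: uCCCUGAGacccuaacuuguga
hsa-miR-503-5p: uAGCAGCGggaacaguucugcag

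Genes past 4-fold often lay beside another gene that moved the same way. Of 127 genes lower past 4-fold that had a following gene in RefSeq order, 28 (22.0%) were followed by a gene lower past 2-fold, against 3.44% over all genes. Of 94 genes higher past 4-fold, 17 (18.1%) were followed by a gene higher past 2-fold, against 3.30%. Many of these neighbours are members of 1 gene family with similar sequences, and the part of shared probe binding in this was not tested. The runs included 5 metallothionein genes, the S100A9, S100A12, S100A8 and S100A7 genes, and the STEAP4, STEAP1 and STEAP2 genes on the lower side.

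On the higher side, a run of 5 joined KRT9, KRT14, KRT16, KRT17 and KRT42P. The following runs were picked after their values had been seen. The SPRR2A, SPRR2E, SPRR2F and SPRR2C genes, which encode cross-linked proteins of the cornified envelope, were higher together (SPRR2A 45 and 475, SPRR2E 52.2 and 431), and so were SPRR1B (11.8 and 80.4) and SPRR3 (25.9 and 174). The SPRR2 genes are near-identical. IL1R2, IL1R1 and IL1RL1, receptors of the interleukin 1 family that differ in sequence, had log2 ratios of 2.31, 2.12 and 2.19, whereas the ligand genes IL1A, IL1B and IL37 formed a lower run. PWARSN, PWAR6, SNORD116-19 and IPW, noncoding RNAs of the imprinted Prader-Willi region, read 63 and 175, 17.2 and 72.1, 42.6 and 94.2, and 88.5 and 200. On the lower side APOBEC3B (986 and 218), APOBEC3C (11300 and 1190) and APOBEC3F (8340 and 927), cytidine deaminases that share sequence, lay beside CBX6 (-1.41) and CBX7 (-1.27), which encode Polycomb proteins. APOBEC3G, of the same family, read 513 in PC3-shC cells and was at least 62.7-fold lower.

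Genes seen on 1 array only were kept apart. There were 363 on the control array and 630 on the knockdown array, and for 110 and 139 of them the bound was past 2-fold. Bounds on the lower side were larger, led by SAA1, SAA2 and BDKRB1. On the higher side VSTM1, a receptor of myeloid cells, was at least 12.8-fold higher (2.81 and 126), CSAG1, a cancer-testis antigen, at least 11.6-fold (3.35 and 114), CSAG4, its relative, at least 7.75-fold, FRMPD4 at least 8.38-fold and ZNF816 at least 7.93-fold. VSTM1 read 403 and 85.5 in DU145 cells.

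The 300 bases from 250 before to 50 after the start site were searched for 4 motifs on both strands, since they were at hand for 12199 of the genes compared, 86 of the 128 lower and 67 of the 94 higher past 4-fold. The AP-1 motif TGANTCA was in 15.1% of the lower, 22.4% of the higher and 5.12% of all promoters. The interferon-response motif GAAANNGAA was in 20.9% of the lower, 17.9% of the higher and 6.72% of all. The NF-kB motif GGNNTTTCC was in 10.5%, 8.96% and 6.56%, and the CRE motif TGACGTCA in 0%, 1.49% and 2.96%. Matches of different motifs overlapped in at most 6 promoters for any motif. For the AP-1 and the interferon-response motif the share was above that of all promoters among the lower and among the higher genes alike. These counts describe letters and not binding.

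Some stretches before the start site are shown because they belong to genes with the largest ratios or signal differences, with the motif in capitals, from RefSeq GRCh38.p14. The MSMP stretch (chr9:35754392-35754438, minus strand), the MT2A stretch (chr16:56608460-56608506, plus), the LCN2 stretch (chr9:128149381-128149427, plus), the SFN stretch (chr1:26862959-26863005, plus) and the ANXA2 stretch (chr15:60398087-60398133, minus) each hold an AP-1 motif. The MIR3142HG stretch (chr5:160468112-160468160, plus) and the TRIM31 stretch (chr6:30113195-30113243, minus) hold an NF-kB motif.
MSMP: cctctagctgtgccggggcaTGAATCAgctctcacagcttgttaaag
MT2A: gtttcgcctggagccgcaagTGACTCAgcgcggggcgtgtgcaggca
LCN2: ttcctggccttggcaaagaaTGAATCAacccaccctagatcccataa
SFN: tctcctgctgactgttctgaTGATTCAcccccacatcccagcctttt
ANXA2: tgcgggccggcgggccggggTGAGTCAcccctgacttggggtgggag
MIR3142HG: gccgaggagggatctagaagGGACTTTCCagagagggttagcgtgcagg
TRIM31: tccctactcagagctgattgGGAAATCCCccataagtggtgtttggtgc
MSMP, MT2A and LCN2 were lower and SFN and ANXA2 higher, so an AP-1 motif stood before genes of either direction. MIR3142HG and TRIM31 were both lower. An NF-kB motif, not shown, also stood before BBOX1 and TNFAIP2, which were lower, and before CXCR4, which was higher.

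The genes were chosen for passing background on both PC3 arrays, so a loss of genes on the DU145 arrays is built in. Of all 15713 genes compared in PC3, 14597 were well above background on both DU145 arrays. Of the 128 genes lower past 4-fold in PC3, 76 were well above background on both DU145 arrays, 7 of them lower past 2-fold there and 7 higher (9.21% each). Of the 94 higher past 4-fold, 52 were measured in DU145, 0 of them lower past 2-fold and 11 higher (21.2%). Over all 14597 genes measured in both lines, 233 were lower (1.60%) and 202 higher (1.38%) in DU145. LCN2 read 243 and 42.8 in DU145, CLDN4 983 and 4720. The cell lines were not compared by a test.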

How the data were processed

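The authors deposited scanner output of 4 one-colour arrays, made with Agilent Feature Extraction (12.1.0.3 for the PC3 files), in which the intensity of each spot is background-subtracted and not scaled between arrays. A deposited table of scaled intensity equals these values times 1 constant per array. The methods name GeneSpring without settings. Control spots and spots marked as outliers were left out, spots of 1 probe were averaged, and log2 of each array's 75th percentile over 60901 non-control spots was subtracted. Of 58197 probes, 34890 matched 25005 symbols through RefSeq accessions (GRCh38.p14), and 23307 had no match. A gene was its brightest probe well above background on both PC3 arrays. A gene bright on 1 array got a bound against its own dim signal or, if higher, the dimmest value that passed background there. Some items are not reported here. No test was made with 1 array per condition. Genes were named by rule: ESS2, GAPDH, ACTB, and, outside the published panels and with all probes above background in one direction, 15 falls and 15 rises, 10 falls and 10 rises in scaled signal and the 10 brightest, then 5 bounds each way, and up to 4 genes per list past 2-fold. Other names were chosen after their values were seen. All members and lists were chosen with earlier results of these data known. The calculation was tested on simulated data. Python 3.11.15, numpy 2.4.6, pandas 2.3.3, matplotlib 3.10.9, R 4.3.3 and limma 3.58.1 (normexp) were used.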

Additional observations from a re-analysis of the deposited data

Results flagged for a closer look

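For 6 named genes past 2-fold in PC3, the DU145 arrays gave a log2 ratio past 2-fold in the opposite direction. With 1 array per condition in each line, the difference between the lines was not tested. CYB5R2 was -4.87 in PC3 and 1.59 in DU145. SCNN1A was -4.12 and 1.11, S100A9 -2.51 and 1.75, ITGB2 -1.57 and 1.50, and HLA-DMA -1.22 and 1.19. With normexp HLA-DMA stood at -0.85 in PC3, under 2-fold. The laminin chain LAMB3 went the other way round, with 1.25 in PC3 and -1.28 in DU145. S100A9 (15.3 and 52.8) and SCNN1A (19.3 and 42.7) were dim in DU145.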

How the results depend on the processing

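No paired analysis was possible because each condition has 1 array. With normexp background correction (offset 50) 305 genes were lower and 244 higher past 2-fold, 76 and 39 past 4-fold, and ESS2 stood at -0.90, under 2-fold. Without a filter on dim genes the counts were 1211 and 1433 past 2-fold and 262 and 274 past 4-fold, and among the brighter genes alone, fewer by construction, 199 and 132, and 55 and 22. Scaling to the median gave an all-gene median of -0.16 and ESS2 at -1.56, and the deposited scaled values gave 0.028 and -1.36. The cause of the normexp shift was not tested. LAMA3 reversed to -0.19 as the mean of its probes. Of 245 named genes past 2-fold, all but LAMA3 kept their direction under each setting in which they had a value, and 174 stayed past 2-fold with normexp. Those that did not include CLDN11, TJP3, HLA-DMA, HBEGF, DUSP10, ZEB1, ALDH1A1, ACTA2, AZGP1, TMPRSS2, MMP13, S100A7, TYROBP, PDGFA, KDM7A, CHD5, DPF3, LINC01111 and MIR193BHG. The number of arrays limits every value.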
